A study of Mus musculus with 4 samples.

Results

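Claudins are the membrane proteins that form the strands of tight junctions, the seals between neighbouring epithelial cells. Some build pores that let small cations or water pass between cells, while others close that path, and the mix of claudins sets how leaky an epithelium is. In the small intestine, sodium that passes back through the pore-forming claudins is used by sodium-coupled sugar and amino acid uptake, and Cldn2 is found chiefly in the crypts, where epithelial cells divide.

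The genes described here are 8 claudins of the intestinal epithelium, taken by name: Cldn2 and Cldn15, known as cation pores, and Cldn3, Cldn4, Cldn7, Cldn8, Cldn12 and Cldn23, known or thought to seal or otherwise shape the junction. Every probe set named for 1 of them alone was used, which gave 13 of the 45037 probe sets on the array. Of these 13, 12 passed a filter on low values, set at a mean signal of 0.983 over the 4 arrays, the median over all probe sets, and 22519 passed in all. Cldn2 and Cldn12 had 2 probe sets each, Cldn3 had 4 and the others 1. Probe sets ending in _x_at or _s_at can bind transcripts of related genes, and 2 of those for Cldn3 are of that kind.

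The study compared epithelial cells of the small intestine from AP-1B-/- mice (knockout, 2 arrays) and AP-1B+/- mice (heterozygous, 2 arrays). AP-1B, an adaptor complex found in epithelia, loads membrane proteins into clathrin-coated carriers bound for the basolateral side, and its mu1B subunit is the product of Ap1m2. Animals of both groups were healthy adults of strain C57BL/6J, 10 weeks old and free of specific pathogens, and their epithelium was loosened with EDTA and picked with a needle under a stereomicroscope. The labels do not say how the allele was made, whether 1 array stands for 1 animal or a pool, or what a replicate number marks. Every test therefore measures only the spread between these arrays. That spread may be technical in part, but it also holds the difference in sex pattern described below, so arrays of 1 label were not repeats of the same RNA. The control carries 1 intact copy of the gene, and wild-type mice were not analysed here.

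Values are linear signals given as multiples of the array median, which lay between 0.996 and 0.998. The 75th percentile was 5.57 on knockout 1, 4.27 on knockout 2, 4.13 on heterozygous 1 and 5.54 on heterozygous 2, so bright probe sets as a class read higher on knockout 1 and heterozygous 2. Ap1m2 (1460190_at) read 2.49 on knockout 1 and 22.3 on knockout 2, against 19.9 on heterozygous 1 and 4.33 on heterozygous 2. That signal went against the labels of knockout 2 and heterozygous 2, and the labels do not say whether this probe set lies in the part of the gene that was removed. Every direction by genotype below therefore follows the label as deposited. Xist read 0.070 and 60.1 on knockout 1 and 2, against 0.349 and 30.3 on heterozygous 1 and 2, and the Y-linked Eif2s3y read 24.1 and 0.051 against 12.1 and 0.256, so each label held 1 array with a male and 1 with a female pattern. The epithelial markers Krt8 (601 and 382 on the knockout arrays, 455 and 510 on the heterozygous arrays) and Krt20 (431 and 288, against 332 and 348) were bright on every array.

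The chromosome stretches just upstream of 4 of the genes are shown, chosen after their values were seen: Cldn2 had the widest range over the arrays, Cldn3 and Cldn4 are neighbours with no other protein-coding gene between them, and Cldn15 departed from the rest. Each line holds the 250 bases before the RefSeq start, 5′ to 3′ on the strand of the gene, from build GRCm38.p6, and capitals mark matches to the motifs named below.
Cldn2 (chrX:139800558-139800807, plus strand): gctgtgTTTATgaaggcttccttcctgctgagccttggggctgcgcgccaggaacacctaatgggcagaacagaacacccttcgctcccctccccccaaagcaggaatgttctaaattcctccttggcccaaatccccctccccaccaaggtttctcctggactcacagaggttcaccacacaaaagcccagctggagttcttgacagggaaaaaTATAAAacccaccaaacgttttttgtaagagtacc
Cldn15 (chr5:136967619-136967868, plus strand): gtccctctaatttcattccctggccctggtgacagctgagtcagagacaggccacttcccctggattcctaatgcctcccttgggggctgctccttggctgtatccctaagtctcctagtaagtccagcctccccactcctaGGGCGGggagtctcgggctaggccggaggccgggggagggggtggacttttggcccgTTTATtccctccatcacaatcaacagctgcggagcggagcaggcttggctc
Cldn3 (chr5:134985964-134986213, plus strand): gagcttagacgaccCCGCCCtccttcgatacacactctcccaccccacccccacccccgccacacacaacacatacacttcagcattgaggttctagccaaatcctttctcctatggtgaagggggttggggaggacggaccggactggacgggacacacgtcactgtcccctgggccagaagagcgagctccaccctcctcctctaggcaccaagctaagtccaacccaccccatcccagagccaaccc
Cldn4 (chr5:134946935-134947184, minus strand): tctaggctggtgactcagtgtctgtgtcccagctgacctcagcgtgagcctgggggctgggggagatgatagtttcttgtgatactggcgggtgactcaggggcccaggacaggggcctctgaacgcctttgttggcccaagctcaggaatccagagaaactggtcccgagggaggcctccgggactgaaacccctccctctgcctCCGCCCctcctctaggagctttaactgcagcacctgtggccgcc

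Of the 8 genes, 6 had an entry in the RefSeq promoter table. Both strands were searched for TATAAA (the TATA box), TTTAT (the core bound by caudal-type homeobox factors such as CDX2), GTTAAT (an HNF1 half-site), GGGCGG (a GC box) and CTTTGAT (a TCF site). Any TATAAA match also holds the caudal-type core on the other strand. The Cldn2 window held the TATA box at −35 (first base, counted back from the start) and the caudal-type core at −244 and, within the TATA box, at −34. TATAAA was present in 12.3% and TTTAT in 37.2% of 32536 distinct windows of the same length. The Cldn15 window held the caudal-type core at −51 and a GC box at −108, while Cldn3 and Cldn4 held 1 GC box each, at −236 and −44. GC boxes were present in 33.0% of windows, GTTAAT in 6.47% and CTTTGAT in 3.21%, and neither of the last pair was found in the windows of these members. A match is a run of letters and shows no binding.

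Among the pore-forming claudins, Cldn2 was high on 1 array of each label. Its brighter probe set (1417231_at) read 171 and 29.9 on knockout 1 and 2, against 14.4 and 115 on heterozygous 1 and 2. The labelled groups overlapped, with the highest and the next-highest array in different groups. Its dimmer probe set (1417232_at) read 22.8 and 4.70 on the knockout arrays, against 3.60 and 16.1 on the heterozygous arrays, with the same order of arrays and a range of 6.33-fold in place of 11.9-fold. The means of the brighter one were 100.6 ± 100.02 on arrays labelled knockout and 64.5 ± 70.8 on those labelled heterozygous (SD, n = 2 each). The log2 difference on values with a pseudocount of 0.32 added was 0.81 with a standard error of 0.94 by limma, whose adjusted p was 0.999907. The difference was smaller than the spread between arrays of 1 label. In bulk RNA, fewer cells of a type and less RNA per cell cannot be told apart, here as for the genes that follow.

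Cldn15, the other cation pore and the one known for the sodium supply of glucose uptake in mouse intestine, did not share that pattern. It read 74.1 and 87.8 on knockout 1 and 2, against 89.3 and 127 on heterozygous 1 and 2. Both knockout values lay below both heterozygous ones, with knockout 2 and heterozygous 1 close together, and the range over the arrays was 1.72-fold. Among kept probe sets, 17.3% had labelled groups that did not overlap, so 1 of the 12 kept claudin probe sets is no more than the array as a whole showed. The log2 difference was −0.40, its standard error was 0.49, and limma gave an adjusted p of 0.999907. After quantile normalization, which gives every array the same distribution of values, the groups overlapped, at 64.0 and 105.9 for knockout against 105.4 and 109 for heterozygous.

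Of the sealing claudins, Cldn3 is one of the claudins that form much of the intestinal barrier, and it was measured by 4 probe sets. The brightest (1460569_x_at) read 262 and 152 on knockout 1 and 2, against 144 and 257 on heterozygous 1 and 2. Knockout 1 and heterozygous 2 were high and nearly equal, and the other arrays were low and nearly equal. The other 3 probe sets ranged from 66.5 to 242 and had the same arrays high and low, with range folds of 1.69 to 2.04. The 4 profiles on the log2 scale, each centred on its mean, differed from each other by a root mean square of 0.021 to 0.15, against 0.39 between both Cldn2 probe sets and 0.15 between those of Cldn12. Log2 differences by label were −0.049 to 0.079, with standard errors of 0.46 to 0.55.

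Cldn4, the neighbour of Cldn3 on chromosome 5 and a sealing claudin that in kidney is also linked to chloride passage, had a wider range. It read 38.0 and 13.0 on knockout 1 and 2, against 14.2 and 25.9 on heterozygous 1 and 2. Knockout 1 stood above heterozygous 2, unlike Cldn3, where these were level. Its log2 difference by label was 0.21, its standard error 0.65 and its adjusted p by limma 0.999907.

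Cldn7, which also lies along the basolateral membrane and binds the adhesion protein EpCAM, had the narrowest range, 1.47-fold. It read 279 and 196 on knockout 1 and 2, against 191 and 280 on heterozygous 1 and 2. Means were 237 ± 58.3 for knockout and 235 ± 62.9 for heterozygous (SD, n = 2 each), with a log2 difference of 0.018 and a standard error of 0.42. Cldn23 read 44.8 and 17.96 on knockout 1 and 2, against 16.3 and 42.6 on heterozygous 1 and 2, a range of 2.75-fold and, after Cldn2 and Cldn4, the widest of the kept members. Its log2 difference by label was 0.11 with a standard error of 0.66.

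Cldn12, a claudin that with Cldn2 has been tied to vitamin D and calcium uptake in mouse intestine, read 45.9 and 28.1 on knockout 1 and 2, against 29.8 and 42.0 on heterozygous 1 and 2 (1433781_a_at). Its dimmer probe set (1433782_at) read 13.9 and 9.88, against 8.63 and 15.97, so that the highest array was knockout 1 by one probe set and heterozygous 2 by the other. Cldn8, a sealing claudin abundant in colon and kidney, was the member that did not pass the filter. It read 1.01 and 1.14 on knockout 1 and 2, against 0.911 and 0.229 on heterozygous 1 and 2, near or below the array median throughout, and was not tested. No detection calls were used here, so these values do not show whether Cldn8 was expressed.

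**Figure D1:**
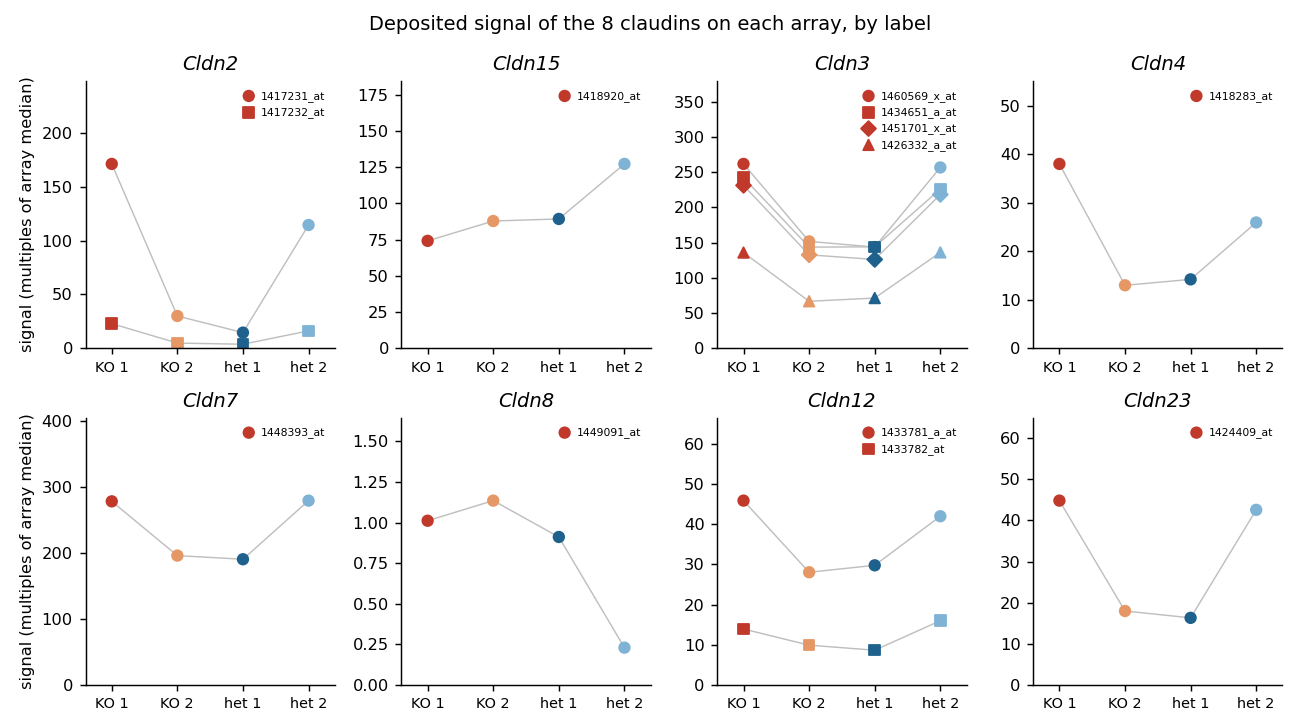
Signal of each claudin (linear axis from 0, multiples of the array median) on the arrays labelled knockout (KO) 1 and 2 and heterozygous (het) 1 and 2, with 1 marker shape per probe set and grey lines joining the values of a probe set. Cldn2, Cldn3, Cldn4, Cldn7, Cldn12 and Cldn23 are higher on KO 1 and het 2 than on KO 2 and het 1, while Cldn15 and Cldn8 are not.

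By label, no claudin probe set passed the adjusted threshold of 0.05, and neither did any other probe set, so that 0% of the array was called by limma. At an unadjusted p under 0.05 there were 0 of 12 claudin probe sets and 170 of all those kept, or 0.755%. Of the 12, 9 had a fitted difference above 0, against 50.7% of all kept probe sets, and their median log2 difference was 0.051, against 0.0054 over all. The arrays that share a replicate number differed in opposite directions, and the replicate 1 arrays are also those with the male and the replicate 2 arrays those with the female pattern. Between the replicate 1 arrays, 11 of 12 were higher on knockout, against 68.8% of all kept probe sets, with Cldn2 at 11.9 times, Cldn23 at 2.75 times and Cldn4 at 2.68 times heterozygous 1. Between the replicate 2 arrays, all 12 were lower on knockout, against 75.1% of all kept probe sets, with the same 3 genes at 0.261, 0.422 and 0.4999 times heterozygous 2. Cldn15 was the exception in the first pair and was lower on knockout in both, at 0.830 and 0.690 times. These are comparisons of 1 array with 1 array and carry no test.

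**Figure D2:**
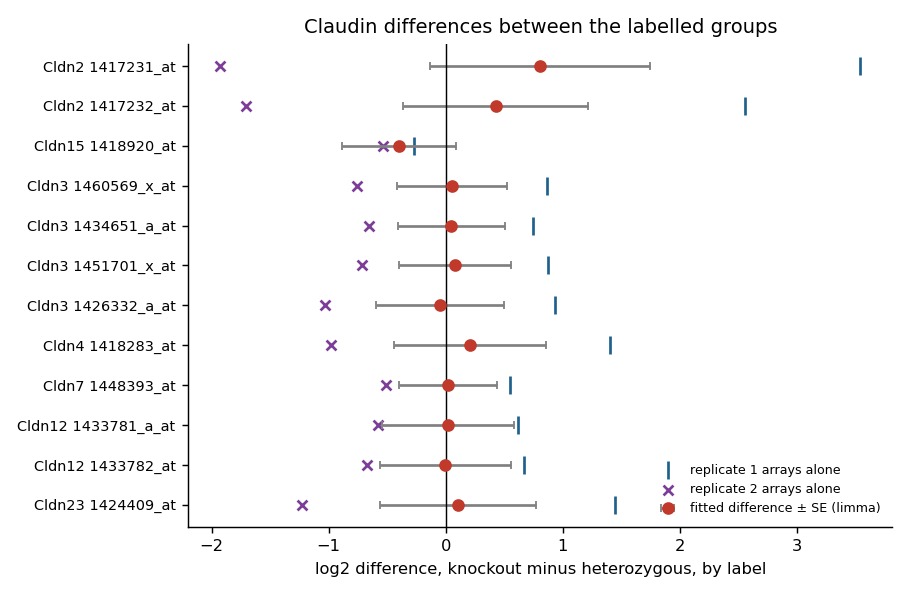
Log2 difference, knockout minus heterozygous by label, for the 12 kept claudin probe sets. Points with bars are the fitted difference ± 1 standard error from limma with 2 arrays a group, vertical ticks compare the replicate 1 arrays alone and crosses the replicate 2 arrays alone. Ticks and crosses fall on opposite sides of 0 for all but Cldn15.

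Leaving out 1 array turned the sign of every kept claudin probe set but that of Cldn15. The log2 difference of the brighter Cldn2 probe set was −0.67 without heterozygous 1 and −0.45 without knockout 1, against 2.29 without heterozygous 2 and 2.06 without knockout 2. The median over the 12 was −0.40 without heterozygous 1 and −0.34 without knockout 1, against 0.45 without heterozygous 2 and 0.46 without knockout 2. The same fits moved the median of all kept probe sets to −0.20, −0.17, 0.20 and 0.18 in that order.

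Set beside Ap1m2, the claudins were higher where the Ap1m2 signal was lower. On the 2 arrays with Ap1m2 at 2.49 (knockout 1) and 4.33 (heterozygous 2), 11 of the 12 kept claudin probe sets, from 6 of 7 genes, read higher than on both arrays with Ap1m2 at 19.9 (heterozygous 1) and 22.3 (knockout 2). The same held for 52.7% of all kept probe sets, and for 56.7% of genes taken at 1 probe set each, so a large part of the array shared that order. After quantile normalization it held for 10 of 12 claudin probe sets and 5 of 7 genes, against 28.4% of kept probe sets and 27.8% of genes. The probe sets without it then were Cldn15 and the brighter one of Cldn12, which read 39.3 and 34.3 on knockout 1 and 2 against 36.9 and 34.8 on heterozygous 1 and 2. The arrays were described in this way by a gene measured on them, so the comparison carries no test, no mean and no claim about genotype.

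The size of the gap differed between members. For the brighter Cldn2 probe set, the lower of knockout 1 and heterozygous 2 was 3.83 times the higher of heterozygous 1 and knockout 2 on deposited values and 2.65 times after quantile normalization. For Cldn23 the same gap was 2.37 and 1.62 times. A gap of at least 1.5 times was found at 8 of the 12 on deposited values, against 16.8% of all kept probe sets. These were every probe set of Cldn2 and Cldn3 and those of Cldn4 and Cldn23, so the count leans on genes measured more than once. All 12 were also among the brightest 25% of probe sets, while that share covers every kept one. After quantile normalization such a gap was found at 3 of 12, against 4.95%. Those 3 were both probe sets of Cldn2 and that of Cldn23. For Cldn3 the gap after normalization was 1.21 to 1.38 times, for Cldn4 1.21 times, and for Cldn7 and the dimmer Cldn12 probe set 1.02 and 1.003 times.

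For Cldn2, Cldn23 and Cldn4, knockout 1 was above knockout 2 and heterozygous 2 above heterozygous 1. After quantile normalization Cldn2 read 153 and 36.7 on knockout 1 and 2, a ratio of 4.17, against 18.05 and 97.3 on heterozygous 1 and 2, where heterozygous 2 was 5.39 times heterozygous 1. Cldn23 read 38.4 and 21.8 on the knockout arrays, a ratio of 1.76, against 20.5 and 35.3 on the heterozygous arrays, a ratio of 1.72. Cldn4 had a ratio of 2.06 within the knockout arrays and 1.21 within the heterozygous arrays. On the same scale Cldn15 did not have that direction in both labels, with knockout 1 at 0.604 times knockout 2 and heterozygous 2 at 1.04 times heterozygous 1, nor did the brighter Cldn12 probe set, at 1.15 and 0.942 times. Cldn2 lies on the X chromosome, and its 2 high arrays were one with the male pattern (knockout 1) and one with the female pattern (heterozygous 2). Whether sex bears on the Cldn2 signal was not tested.

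**Figure D3:**
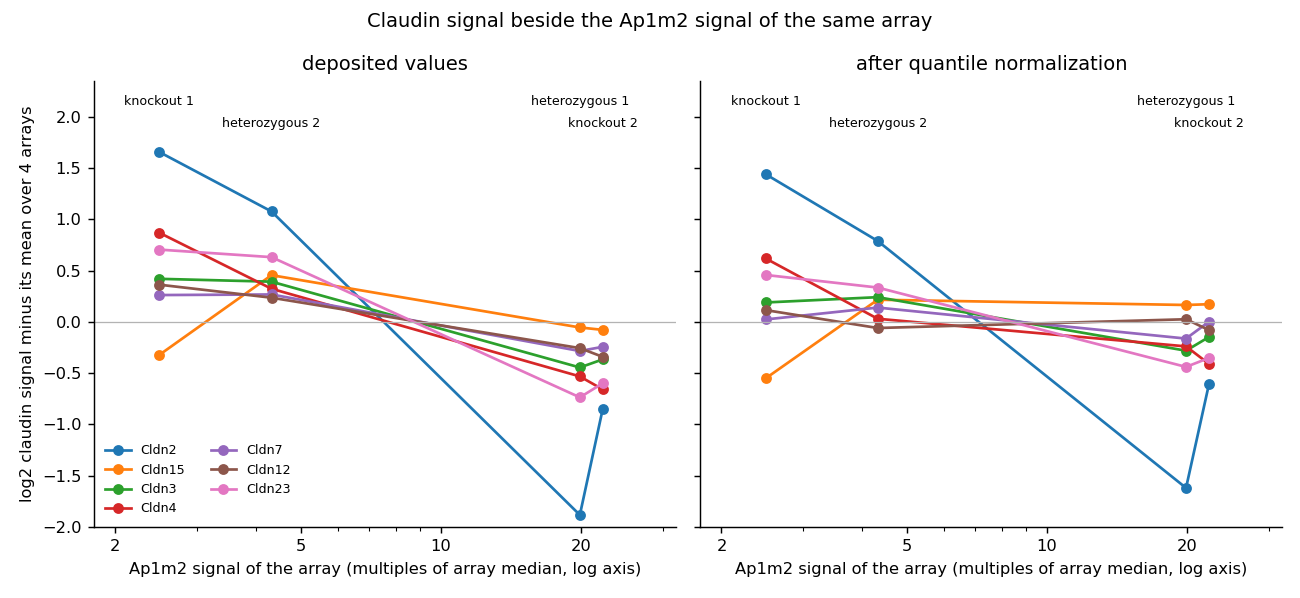
Log2 signal of each claudin, minus its mean over the 4 arrays, against the Ap1m2 signal of the same array (log axis), for deposited values (left) and after quantile normalization (right), with the brightest probe set of each gene. Cldn2 shows the widest gap between the arrays low and high in Ap1m2 in both panels, and Cldn15 is lowest on knockout 1.

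The rest of the claudin family was mostly dim. Of 26 further probe sets whose gene symbol begins with Cldn, 8 passed the filter. Cldnd1, a claudin-like membrane protein gene, was the bright one, and its brightest probe set ran the other way, at 65.4 and 107.7 on knockout 1 and 2, against 97.9 and 80.5 on heterozygous 1 and 2 (1431293_a_at). Its other kept probe sets did not have that order on deposited values. They read 18.5 and 38.2 against 32.3 and 36.5 (1429555_at) and 2.26 and 2.48 against 3.56 and 2.54 (1437399_at). After quantile normalization all 3 Cldnd1 probe sets were lower on knockout 1 and heterozygous 2, as were 5615 of the 22519 kept probe sets. The 2 dimmer ones then read 15.8 and 46.8 against 40.0 and 30.2, and 2.15 and 2.65 against 4.11 and 2.40. Cldn5, the claudin of endothelium, read 0.926 and 1.59 on the knockout arrays, against 1 and 1.11 on the heterozygous arrays. Cldn10, Cldn14, Cldn22 and Cldn34c4 were also near the array median, between 0.755 and 2.11. The 8 had a median log2 difference by label of −0.058, with 3 above 0.

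Tight junction genes other than claudins were examined from a list of 24, of which 19 had a kept probe set. By label, 9 were above 0 and 10 below, none passed the threshold, and the median log2 difference was −0.033, against 0.0040 over all genes. Ocln, which encodes occludin, read 42.6 and 25.5 on knockout 1 and 2, against 22.2 and 52.5 on heterozygous 1 and 2. Tjp1, the scaffold ZO-1 that holds claudins by their tails, read 42.8 and 19.2, against 21.9 and 35.1. Both were high on the same arrays as the sealing claudins. Those closest to the threshold in the list were Ybx3, a factor that binds ZO-1 (180 and 51.2 against 55.1 and 77.9), and Cgnl1, paracingulin (0.940 and 0.838 against 1.25 and 1.14), with limma p of 0.39 and 0.48 before adjustment, and both missed the adjusted threshold. On deposited values 18 of the 19 were higher on knockout 1 and heterozygous 2 than on the other arrays, against 56.7% of genes. After quantile normalization 8 were, against the 27.8% of genes given above.

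Partners and proteases of claudins were 5 of 6 listed genes. Epcam, whose product holds Cldn7 in the membrane, read 295 and 184 on knockout 1 and 2, against 174 and 275 on heterozygous 1 and 2. St14, which encodes the protease matriptase, read 134 and 66.7, against 63.9 and 112, and Spint2, which inhibits it, read 294 and 217, against 210.0 and 245. Spint2 and Prss8 (12.9 and 6.60 against 5.71 and 11.6) had the smallest unadjusted p of the list, 0.70 and 0.76 by limma. None passed by label, with a median log2 difference of 0.16. All 5 had the order of Cldn3 on deposited values, against 56.7% of genes. After quantile normalization 4 of 5 had it, against 27.8% of genes.

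Most transcription factors that act on claudin genes or on epithelial identity lacked the order of Cldn3 once arrays were normalized, as did most genes. Of 11 kept genes, 8 were higher on knockout 1 and heterozygous 2 on deposited values, against 56.7% of genes. After quantile normalization 1 was higher and 4 were lower, against 27.8% and 24.8% of genes. Cdx2, known to drive CLDN2 transcription in human cells, read 31.4 and 26.7 on knockout 1 and 2, against 17.5 and 29.2 on heterozygous 1 and 2, and Hnf4a read 249 and 147, against 154 and 214. Vdr, the vitamin D receptor, was low on knockout 1 alone, at 33.8 and 88.5 against 99.2 and 103. By limma it came first in that list, with an unadjusted value of 0.15, followed by Grhl2 (10.4 and 5.08 against 4.05 and 6.65) with 0.40, and none passed the adjusted threshold.

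Genes of the sodium handling list did not share the order of Cldn2. That list also held Slc15a1, a peptide carrier coupled to protons rather than sodium, which was counted with the others. All 5 kept genes had log2 differences below 0 by label, as had 5600 of all 11326 genes. The 5 had a median of −0.83, the value of Slc15a1, but none passed the threshold. Slc6a19, a sodium-coupled carrier of neutral amino acids, read 23.4 and 106 on knockout 1 and 2, against 112 and 110.3 on heterozygous 1 and 2, and Slc5a1, the sodium-glucose carrier, read 119 and 308, against 312 and 281 (limma, unadjusted p = 0.11 and 0.21). Slc9a3, a sodium-proton exchanger, read 13.7 and 54.4, against 59.4 and 40.6. On deposited values 3 of the 5 were lower on knockout 1 and heterozygous 2 than on the other arrays, against 9.06% of genes, and after quantile normalization 5 were, against 24.8%. Slc6a19 on deposited values was low on knockout 1 alone. Between the replicate 2 arrays knockout was higher for Slc9a3, Slc15a1 and Slc5a1, at 1.34, 1.15 and 1.10 times heterozygous 2. It was lower for Slc6a19 and Atp1b1, at 0.958 and 0.945 times.

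Markers of cell position and of other cell types also differed between the arrays, some in the claudin order and some in the opposite one, and their part in the claudin values was not tested. Crypt proliferation markers, 10 of 11 measured, summed to 479 and 171 on knockout 1 and 2, against 164 and 259 on heterozygous 1 and 2, with Pcna (197 and 70.4 against 74.0 and 121) and Mcm6 (33.9 and 18.3 against 16.1 and 21.4) as the brightest by mean. On deposited values 9 of the 10 were higher on knockout 1 and heterozygous 2, against 56.7% of genes. After quantile normalization 5 were, against 27.8% of genes. Their normalized sums were 416 and 207 on the knockout arrays, against 201 and 218 on the heterozygous arrays, so knockout 1 alone stood well above the rest. Crypt stem cell markers did not have the claudin order in their sums, at 128 and 142 against 141 and 107 over 5 genes on deposited values. Smoc2 alone had it, and 3 of the 5 were lower on knockout 1 and heterozygous 2, against 56.7% and 9.06% of genes. After quantile normalization 0 had it and 4 were lower, against 27.8% and 24.8%. Of the 5 genes, Olfm4 read 106 and 117 against 122 and 88.6, Smoc2 12.2 and 9.16 against 7.54 and 10.2, and Lgr5 1.64 and 4.05 against 3.65 and 1.78. Villus enterocyte markers, 9 of 10 measured, summed to 3557 and 3422 on the knockout arrays, against 4204 and 3689 on the heterozygous arrays. The brightest, Fabp1 (910.4 and 582 against 707 and 770) and Apoa1 (758 and 633 against 782 and 733), had narrow ranges, while lactase, Lct, read 3.97 and 237 against 312 and 82.3, Anpep 46.7 and 190 against 203 and 137, and Mme 25.8 and 108 against 161 and 96.6. On deposited values 4 of the 9 were lower and 1 higher on knockout 1 and heterozygous 2, against 9.06% and 56.7% of genes. After quantile normalization 5 were lower and 1 higher, against 24.8% and 27.8% of genes. The normalized sums were 3054 and 4062 on the knockout arrays, against 4221.5 and 3652 on the heterozygous arrays. They were lowest on knockout 1 and heterozygous 2.

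T cell markers summed to 13.2 and 281 on knockout 1 and 2, against 458 and 92.1 on heterozygous 1 and 2. All 8 genes were lower on knockout 1 and heterozygous 2, on deposited and on quantile-normalized values, against 9.06% and 24.8% of genes. Gzma and Ccl5 were the brightest, and the defining marker Cd3e read 0.211 and 0.296 on those arrays, below the array median. Myeloid markers summed to 26.8 and 32.7 on the knockout arrays, against 80.0 and 27.6 on the heterozygous arrays, over 5 genes, of which Lyz2 and Csf1r were the brightest. Of the 5, 4 were lower on knockout 1 and heterozygous 2 on deposited values, against 9.06% of genes. After quantile normalization 5 were, against 24.8%. Of the endothelial markers, Pecam1, Cdh5 and Vwf did not pass the filter, and the 3 that did summed to 3.43 and 3.78, against 3.89 and 3.34, with Tek and Kdr ahead of Cldn5. Pancreatic acinar markers summed to 2.08 and 59.3 on the knockout arrays, against 1.84 and 9.75 on the heterozygous arrays, over 5 genes. They were thus highest on knockout 2, led by Cela2a and Ctrb1. Cldn2, Cldn3, Cldn4, Cldn7, Cldn12 and Cldn23 were low on knockout 2 and heterozygous 1, the arrays with the highest and the lowest acinar sum. Whether acinar RNA bears on the claudin values was not tested. Epithelial markers summed to 2665 and 1527 on the knockout arrays, against 1696 and 2283 on the heterozygous arrays. After quantile normalization 5 of 7 were higher on knockout 1 and heterozygous 2, as were 5 of 7 claudin genes, against 27.8% of genes. The other 2 markers, Krt20 and Vil1, were lower on those arrays, against 24.8% of genes, while no claudin gene was.

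The other epithelial and non-epithelial lists did not have the claudin order of arrays in their sums, except goblet cell markers on deposited values. Paneth cell markers summed to 485 and 203 on knockout 1 and 2, against 671 and 317 on heterozygous 1 and 2, over 4 genes led by Lyz1 and Itln1. Goblet cell markers summed to 1354 and 1063, against 1282 and 1437, over 5 genes led by Tff3 and Clca1, and to 1139 and 1276, against 1400 and 1348, after quantile normalization. Enteroendocrine markers summed to 99.3 and 83.7, against 122.5 and 129.9, over 5 genes led by Chgb and Cck. Tuft cell markers, Dclk1 and Trpm5, summed to 3.395 and 6.78, against 7.44 and 5.13. Markers of ileum and colon, led by Slc51a and Slc51b, summed to 50.4 and 107, against 86.5 and 84.1, over 3 genes, since Fabp6, Slc10a2 and Hoxb13 did not pass the filter. B and plasma cell markers, led by Igha and Jchain, summed to 274 and 245, against 622 and 243, over 5 genes. Stromal and muscle markers, led by Acta2 and Col3a1, summed to 22.2 and 21.4, against 18.3 and 14.9, over 5 genes.

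**Figure D4:**
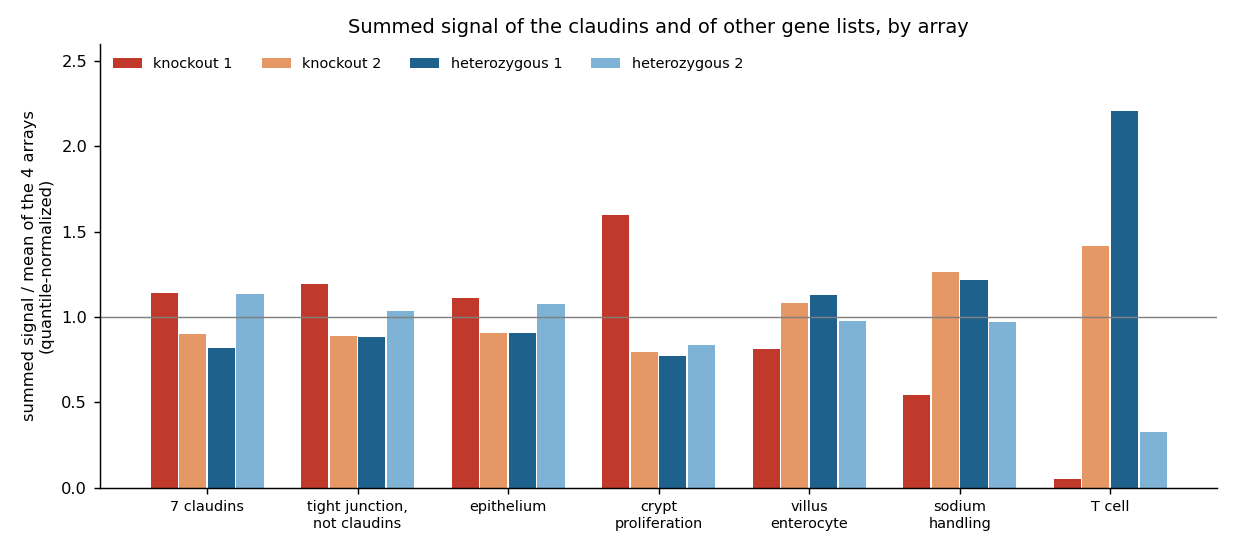
Summed signal of gene lists on each array after quantile normalization, divided by the mean of the 4 arrays (1 probe set a gene, bars from 0, knockout arrays left of heterozygous arrays in each cluster). The 7 kept claudins sum to 791 and 627 on knockout 1 and 2 and to 570 and 790 on heterozygous 1 and 2, while T cell markers run the opposite way.

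Cldn2 was the member whose brightest probe set ranged at least 4-fold over the arrays, so it was compared with the other 11325 genes by the root mean square difference between centred log2 profiles over the 4 arrays. The nearest were S100a5 at 0.20 and S100a14 at 0.21, both S100 calcium-binding proteins, and Hs3st1, a heparan sulfate sulfotransferase, at 0.24. S100a14 read 10.8 and 1.12 on knockout 1 and 2, against 0.356 and 6.33 on heterozygous 1 and 2, and Hs3st1 read 20.9 and 3.09, against 2.26 and 15.4. These distances are shorter than the 0.39 between both probe sets of Cldn2 itself, so with 4 arrays the ranking does not separate genes finely.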

How the data were processed

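Biotin-labelled total RNA was hybridised to 4 one-colour Affymetrix-type arrays. The authors deposited 1 linear intensity per probe set and array, made with MAS5 per the submitters' processing notes. Which version was run is not given in the sources used here. A rescaling of each array to a median near 1 is seen in the values. With 2 arrays a group, the number of arrays limits the precision.

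Gene names came from the platform's annotation (34945 probe sets with 1 gene, 932 with several, 9160 with none), and those with several were not used for names. Values were transformed as log2(value + 0.32), the 25th percentile of all values, which understates changes of dim probe sets, and tested with limma 3.58.1 in R 4.3.3 (intensity trend, Benjamini-Hochberg over 22519 probe sets). With 4 arrays the smallest two-sided p of an exact permutation test is 0.333. The fit was tested on simulated data. Arrays shared identical values at 0.102% to 0.144% of probe sets and were counted as separate samples.

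Lists were represented by the brightest kept probe set of a gene, and 0 set tests were run. The members and lists were chosen with earlier results of these data known. Named were all members, Ap1m2, kept claudins, the 2 genes of each list with the smallest p (the brightest 2 for markers), some fixed genes and, for likeness, the nearest 3. St14, Slc9a3, Lgr5, Lct, Anpep, Mme and Cd3e were named after their values were seen. Marker lists for Paneth, goblet, enteroendocrine, tuft, B and plasma, stromal, ileal and other cells were summed. Alternatives covered pseudocount, filter, scaling, prior, replicate block and each array left out.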

Additional observations from a re-analysis of the deposited data

How the results depend on the processing

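With 4 arrays, limma called 0 probe sets under each pseudocount, scaling, prior, filter, block and threshold tried, except that 1, which was no claudin, passed when only the brightest 25% were tested. In the main comparison 170 had an unadjusted p under 0.05. With 1 array left out the number ranged from 0 to 240 (24 without knockout 1, 240 without knockout 2), none of them a claudin. Deviations of same-numbered arrays from their group means correlated at −0.511 across kept probe sets, so the numbers were not taken as pairs, although the sex pattern followed them. Each label held 1 array of each number, so a block for the number could not change any fitted difference. The claudin median log2 difference was thus 0.051 by design, and 0 probe sets passed. A block of crossed numbers, chosen after seeing the data, also gave 0.

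Over all settings with 4 arrays, the claudin median lay between 0.023 and 0.053 and that of the other tight junction genes between −0.062 and −0.0038. With 1 array left out, the second ranged from −0.35 to 0.37. The sign turned under 75th percentile scaling and median centring for Cldn7 (−0.010 and −0.0083) and the brighter Cldn12 probe set (−0.0071 and −0.0053). These scalings put the median of all kept probe sets at −0.020 and −0.021, against 0.0054.

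With 1 array left out, log2 differences ranged from −0.67 to 2.29 and −0.67 to 1.53 for Cldn2 (brighter, then dimmer probe set), −0.56 to 0.97 for Cldn4, −0.26 to 0.29 for Cldn7 and −0.58 to 0.79 for Cldn23. For Cldn3 they ranged from −0.37 to 0.47 (1460569_x_at), −0.33 to 0.42 (1434651_a_at), −0.32 to 0.48 (1451701_x_at) and −0.56 to 0.46 (1426332_a_at), and for Cldn12 from −0.33 to 0.37 and −0.44 to 0.43. Cldn15 kept its sign in all 14 settings, at −0.66 to −0.15, although the prior and block settings could not change a fitted difference. The cause of these turns was not tested.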
